A study of Mus musculus with 4 samples.

Results

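Meg3, Rian and Mirg are long noncoding RNAs of the imprinted Dlk1-Dio3 region on mouse chromosome 12. Their sites were taken from a deposited list of C-to-U editing sites of young mouse cortex, as every site listed under any of these 3 gene symbols. This gave 414 of the 28412 listed sites, or 1.46%, with 356 under Meg3, 58 under Rian and 0 under Mirg. The 3 genes were chosen from this same list, so the number of sites and their counts are described here and not tested.

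The sites come from scDART-seq, a single-cell assay. Its fusion protein joins APOBEC1, which deaminates cytidines, to the YTH domain, a reader of N6-methyladenosine (m6A), so that cytosines beside m6A become uracil. Polyadenylated RNA of dissociated cortex was sequenced from 4 sublibraries of 1 pool, which mixed APOBEC1-YTH cells with cells carrying APOBEC1-YTHmut, the same fusion with a changed YTH domain. The mice began tamoxifen at 6 to 8 weeks of age, received 20 mg/kg every 24 h over 5 days, and gave tissue 7 days after the last dose. The list names no sublibrary, genotype, animal or cell, so it has no replicates, and the edits of the 2 fusions cannot be told apart in it. The sources used here do not give the promoter or Cre line behind each fusion. Each site carries a whole number, called the site count below; over the list its median was 4, its lowest value 3 and its highest 3538. What it counts is not stated, and read depth is unknown, so a gene with few sites and a gene with little RNA cannot be told apart.

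The Dlk1-Dio3 region carries genes that are active on only one parental chromosome. The maternal copy makes a chain of noncoding RNAs in the same direction: Meg3 first, then Rian, which hosts many C/D box snoRNA genes, then Mirg, which hosts a large microRNA cluster. The paternal copy makes the protein-coding genes Dlk1, Rtl1 and Dio3. Meg3 is abundant in nuclei of neurons. The enzyme complex that writes m6A favours the sequence DRACH, where D is A, G or T, R is A or G, and H is A, C or T; RAC is its core, with the methylated A just before the cytosine that the fusion edits.

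The sequences around the 5 sites with the highest count in each gene are printed first, because they show which bases carried the strongest signals. Each is 21 bases long, runs 5′ to 3′ on the plus strand of mm10, and has the edited C at its centre. Capitals mark the R, the A and the edited C of RAC. They were read from GENCODE M21 transcripts.
Meg3 chr12:109561732 (count 274): gataataaAACaagcaacatg
Meg3 chr12:109561703 (count 273): aaaaaaaaGACgcaaaaaaag
Meg3 chr12:109559667 (count 252): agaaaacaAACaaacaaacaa
Meg3 chr12:109545815 (count 250): ccagacaaGACcaaaaaaaaa
Meg3 chr12:109560109 (count 219): agaaaggtAACaatacactca
Rian chr12:109646553 (count 92): ttttttttAACttgaattttt
Rian chr12:109650969 (count 82): gataagcgAACggaacatcaa
Rian chr12:109660857 (count 64): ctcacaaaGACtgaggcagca
Rian chr12:109661058 (count 35): atggctcaGACttccaataca
Rian chr12:109660990 (count 32): aaaggaaaAACttgttttcta

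All 10 sites lay in RAC, as did nearly all exonic sites of the list with a count of 4 or more. The 5 Meg3 sites had counts of 219 to 274, each above the highest Rian count of 92. The Meg3 sites at 109561703, 109559667 and 109545815 sat in runs of A or of AAAC, while the strongest Rian site sat after a run of T. The 21 bases of that Rian site also occur in 2 other annotated genes, and those of the Meg3 site at 109559667 in 32.

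Meg3 (ENSMUSG00000021268.17) spans 30726 bases, from 109541001 to 109571726 on the plus strand, and is annotated with 11 transcripts whose exons together cover 18089 bases. Its 356 sites all lay in exons, the first at 109541007 and the last at 109571722, so they ran from end to end of the gene. Counts ran from 3 to 274, with quartiles of 3 and 19 and a median of 5. The counts summed to 7787, and the 10 strongest sites held 27.5% of that sum. A count of 100 or more was carried by 24 sites. Most of the summed counts thus lay outside the 10 strongest sites, although 160 of the 356 sites were at the lowest count of 3.

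Rian (ENSMUSG00000097451.10) spans 57777 bases, from 109603940 to 109661716, and starts 32213 bases after the end of Meg3. It is annotated with 20 transcripts covering 18234 exon bases, nearly the same exon length as Meg3. Its 58 sites ran from 109617226 to 109661310. Counts ran from 3 to 92, the median was 5, and they summed to 711. The 10 strongest sites held 60.2% of that sum, and 0 reached 100. Of the 58 sites, 49 were exonic and 9 lay outside the annotated exons of Rian, against 40 such sites among all 27882 sites that were matched to a gene. These 9 sites had counts of 3 to 10, and 7 of them lay in the intron that follows the 8th exon block, between 109636293 and 109637794.

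Mirg (ENSMUSG00000097391.8) spans 19697 bases, from 109729764 to 109749460, and starts 68047 bases after the end of Rian. Its 12 transcripts cover 7292 exon bases with 195 RAC cytosines, and the list held 0 of them. The list starts at a count of 3, so Mirg sites with a lower count would not appear in it. Per kb of exon, RAC cytosines were about as dense in Mirg (26.7) as in Meg3 (22.9) and Rian (24.1). The level of Mirg RNA is unknown, and why it had 0 sites was not tested.

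**Figure D1:**
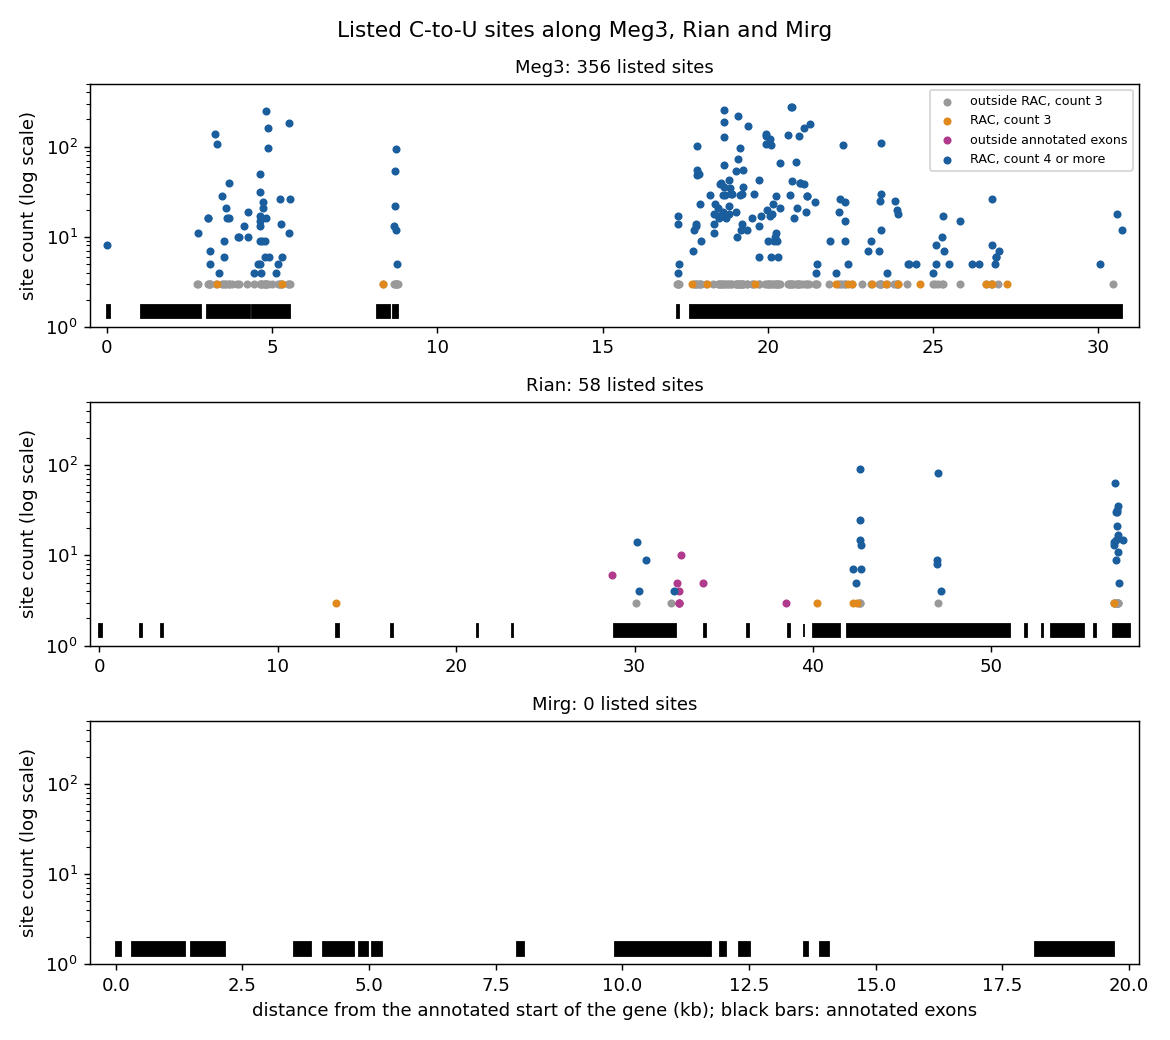
Each dot is a listed site, placed by its distance from the annotated start of the gene in kb and by its site count on a log scale; black bars are annotated exons. Sites lie in each exon block of Meg3 with a bare stretch before its 3′ end, sit in a few clusters in Rian with 9 outside annotated exons, and are absent from Mirg.

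The share of a gene's exonic RAC cytosines that are listed sets the 3 genes beside the rest of the list on a common scale. In Meg3, 212 of 414 RAC cytosines were listed, or 51.2% (95% Wilson interval 46.4 to 56.0). In Rian, 34 of 439 were listed, or 7.74% (5.59 to 10.6), and in Mirg 0 of 195. Over all 4159 matched genes with a site, 2.8% of 773745 RAC cytosines were listed. At a count of at least 4, the shares were 47.3% in Meg3 (42.6 to 52.2) and 6.61% in Rian (4.64 to 9.33), and 2.12% over all matched genes. The intervals cover counting error only, and the RAC cytosines of a gene share the depth of its RNA. Among the 336 genes with 20 or more sites, whose median share was 12.2%, Meg3 ranked 5 and Rian 244. Genes that never reach 20 sites are missing from those ranks.

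Site density gave the same order. Meg3 had 19.7 sites per kb of exon and ranked 10 of those 336 genes, and Rian had 2.69 exonic sites per kb and ranked 239. The median of the 336 genes was 4.19. Among the nearest genes to Meg3 by density were Gpm6a, which encodes a neuronal membrane glycoprotein, with 19.9 sites per kb, and Slc1a2, the astrocyte glutamate transporter, with 19.1. The nearest to Rian were Abi2, an actin regulator, with 2.69, Camta1, a transcription factor gene, with 2.68, and Kif1b, a kinesin motor gene, with 2.67.

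Other long noncoding RNAs covered the whole range between Mirg and values above Meg3. In Malat1, a nuclear RNA, 92.7% of RAC cytosines were listed (87.3 to 95.9). Snhg11, a small nucleolar RNA host gene, has the type protein coding in GENCODE M21. Its share was 46.1% (39.8 to 52.5), whose interval overlaps that of Meg3. In Xist, the RNA that coats the inactive X chromosome, it was 24.3% (20.3 to 28.7). In Miat it was 5.51% (3.25 to 9.20), which overlaps the interval of Rian. In Neat1, the scaffold of paraspeckles, it was 0.592%. Meg3 and Rian, which are neighbours on the same strand, were thus farther apart in this share than Meg3 and Snhg11, or Rian and Miat. No difference between genes was tested.

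**Figure D2:**
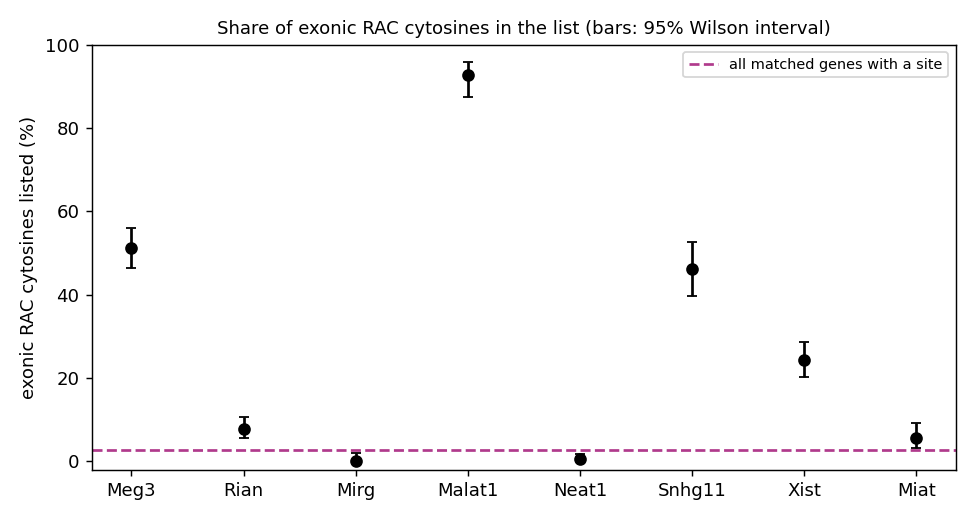
Points give the percent of a gene's exonic RAC cytosines that are in the list, with 95% Wilson bars for counting error, and the dashed line gives the 2.8% of all matched genes. Meg3 at 51.2% lies between Malat1 and Snhg11, Rian at 7.74% lies near Miat, and Mirg is at 0.

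Of 6 other imprinted noncoding RNAs, H19, Airn and Nespas had 0 sites, with 57, 108 and 69 RAC cytosines. Their 95% Wilson upper bounds were 6.31%, 3.43% and 5.27%, and that of Mirg was 1.93%. At 0 listed sites this bound is set by the number of RAC cytosines, which was 195 in Mirg. The 2.8% of all matched genes covers only genes with a site, so it is no baseline for genes with 0 sites. Peg13, a neuronal imprinted RNA, had 25 sites and 17.9% of its RAC cytosines listed (11.5 to 26.8). Snhg14, the long transcript of the Prader-Willi region, had 55 sites and 5.99% listed (4.40 to 8.12). Kcnq1ot1, the antisense RNA of the Kcnq1 domain, had 21 sites and 0.671% listed (0.430 to 1.05). The Meg3 share of 51.2% was higher than each of these shares. Meg3 was chosen from this same list, and the difference was not tested.

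Outside the 3 noncoding RNAs the Dlk1-Dio3 region was nearly empty. Between the outer ends of Dlk1 and Dio3 the list held 419 sites, 418 of them on the plus strand. Beside the 414 members there were 3 sites of Gm37899 at 109669130, 109669132 and 109669135 with counts of 3, 3 and 14. There was also 1 site under the symbol B830012L14Rik at 109679138 with a count of 4, outside that gene as GENCODE M21 annotates it. The single site on the minus strand, at 109592479 with a count of 4, belonged to Rtl1, a retrotransposon-derived coding gene. Of 9 named genes in and around the region, 3 had a site and each had just 1: Rtl1, Begain with a count of 3, and Ppp2r5c with a count of 3. Dlk1, Dio3, Dio3os, Wdr25, Wars and Yy1 had 0.

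Within Meg3 the listed share rose and fell along the exons. By kb of exon from the 5′ end, the share of RAC cytosines with a count of 4 or more was 85.2%, 96.7%, 92.3% and 82.6% in the 6th to 9th kb. It was 0 of 11 and 0 of 24 in the 16th and 17th kb. The dense stretch, which was picked after its values were seen, ran from 109558640 to 109562637, the first 3998 bases of the last exon block. It held 166 sites, and 95 of its 106 RAC cytosines had a count of 4 or more, or 89.6% (82.4 to 94.1). The exon bases before it gave 59 of 124, or 47.6% (39.0 to 56.3), and those after it 42 of 184, or 22.8% (17.4 to 29.4). Because the stretch was picked on these values, the intervals do not test how it differs from the rest. The median count of sites with a count of 4 or more was 28 in the stretch, 13 before it and 8.5 after it. The stretch held 65.2% of the summed counts of Meg3 and 17 of its 24 sites with a count of 100 or more.

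**Figure D3:**
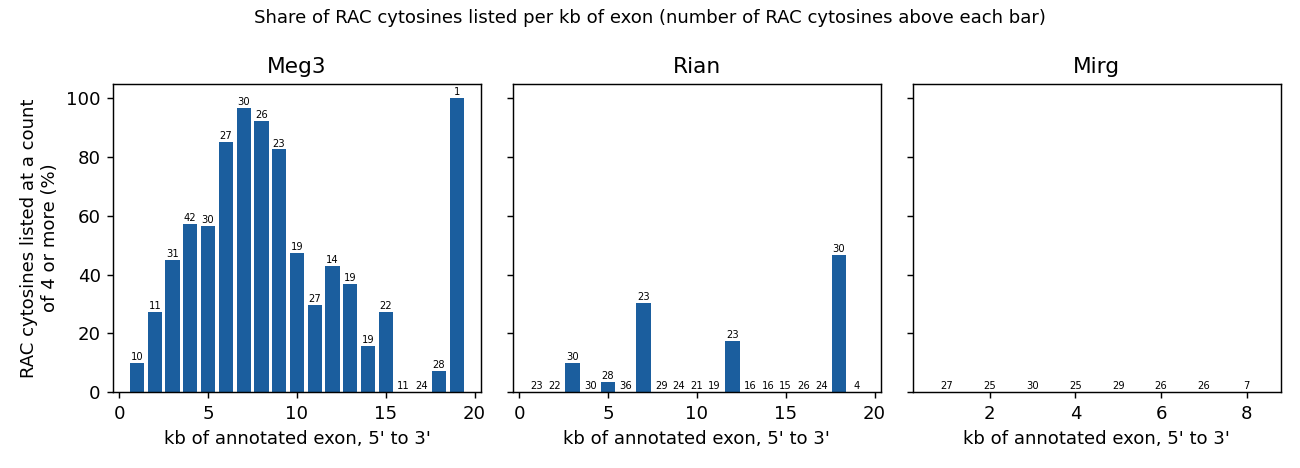
Bars give the percent of RAC cytosines that reached a count of 4 in each kb of annotated exon from 5′ to 3′, with the number of RAC cytosines above each bar. Meg3 peaks at 96.7% in its 7th kb, Rian has separate peaks in its 7th, 12th and 18th kb, and Mirg has none; the last Meg3 bar at 100% holds 1 cytosine.

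Just 8 RAC cytosines of the dense stretch were absent from the list. They are shown because they are the exceptions there, with capitals for RAC.
chr12:109559013: ggtcttgaAACaggtttctca
chr12:109559170: ggtaaaagAACatatgctgtg
chr12:109561090: gacagacaGACacagcgaaaa
chr12:109561433: gcccatggGACttctgctcat
chr12:109562097: ggagaaaaAACaaggaagaga
chr12:109562541: cacagcctAACtgactgggag
chr12:109562545: gcctaactGACtgggagcagc
chr12:109562627: agtccataGACacatccctgc
AAC and GAC were both among them, and the 3 at 109562541, 109562545 and 109562627 lay close to the stretch's 3′ end.

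By exon block of the merged annotation, Meg3 sites were held mainly by 3 of its 8 blocks. The last block, 109558640 to 109571726, held 248 sites, or 69.7%, and 75.4% of the summed counts. The block from 109545398 to 109546542 held 47 sites with a highest count of 250, and the one from 109544027 to 109545319 held 35 with a highest count of 137. The short blocks were not passed over: the 158-base 6th block held 12 sites and the 84-base 7th block held 8. Among transcripts, Meg3-209, of 14548 bases in 5 exons, covers 315 of the 356 sites, and Meg3-206 covers 188. The 10-exon Meg3-207, which splices out most of the last block, covers 63. The list does not say from which transcript an edit came.

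Rian had more sites in its last exon block than in any other block. The last of its 19 exon blocks, 109660746 to 109661716, is 971 bases long and held 24 sites, or 41.4%, and 48.0% of the summed counts. In this block 14 of 25 RAC cytosines had a count of 4 or more, or 56%, and site density was 24.7 per kb. The 9163-base block from 109645847 to 109655009 held 17 sites, with 11 of 192 RAC cytosines counted at least 4 times, and includes the site with a count of 92. The 8th block, from 109632798 to 109636273, held 6 sites, the 4th and the 13th held 1 each, and the other 14 blocks held 0. Rian-202, which ends with the last block, covers 37 sites, and Rian-201 covers 17. The last block of Rian thus had a density in the range of Meg3, while most of the gene had no site.

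The longest stretch without a site in Meg3 ran from 109549793 to 109558261, but 8467 bases lie between and just 41 are exonic. Along the exons the longest gap lay near the 3′ end, between 109568225 and 109571044. Its 2818 exonic bases held 51 RAC cytosines, none listed. In Rian the longest stretch ran from 109617226 to 109632700, and along the exons from 109651094 to 109660815, where 6051 exonic bases held 122 RAC cytosines with none listed. After each of these exonic gaps sites were listed again before the gene's end, with 4 in Meg3 and 24 in Rian.

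Distances between neighbouring sites depended on which sites were counted. In Meg3 the distance between neighbours was 1 to 8468 nt with a median of 12, and 168 of 355 distances, or 47.3%, were 10 nt or less. In Rian it was 2 to 15474 nt with a median of 15, and 21 of 57 distances, or 36.8%, were 10 nt or less. The median over all matched genes was 25 nt. Without the sites at a count of 3 the medians were wider, at 29 nt in Meg3 and 61 nt in Rian, against 46 nt over all matched genes, so the order of Rian and all genes turned round. Runs of 4 or more sites with steps of at most 10 nt held 90 sites of Meg3 in 18 runs, the longest with 9 sites, and 13 sites of Rian in 3 runs. With RAC sites of 4 or more alone, 3 runs with 16 sites were left in Meg3 and 0 in Rian.

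The 200-base window with the most sites in each gene is printed because it shows how packed the RAC cytosines are, with capitals for the RAC of each site with a count of 4 or more. Cytosines of RAC in lower case either were listed at a count of 3 or were not listed. The Rian window opens on the C of a site whose R and A lie just before it.
Meg3 chr12:109545617-109545816: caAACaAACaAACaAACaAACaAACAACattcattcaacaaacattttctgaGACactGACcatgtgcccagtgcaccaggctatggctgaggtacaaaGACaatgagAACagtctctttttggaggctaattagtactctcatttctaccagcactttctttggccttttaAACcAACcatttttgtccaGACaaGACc
Rian chr12:109660815-109661014: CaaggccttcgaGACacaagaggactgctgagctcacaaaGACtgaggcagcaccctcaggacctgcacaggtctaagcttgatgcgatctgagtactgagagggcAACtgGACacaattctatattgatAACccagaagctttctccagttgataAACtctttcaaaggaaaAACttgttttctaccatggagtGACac
The Meg3 window held 23 sites, 15 of them at a count of 4 or more where 17 RAC cytosines lie, with counts of 4 to 250 and a median of 15. The Rian window, in its last exon block, held 17 sites, 9 of them at a count of 4 or more among 11 RAC cytosines, with counts of 9 to 64 and a median of 21. Each window also held sites outside RAC, 8 in Meg3 and 7 in Rian, all at a count of 3.

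In Meg3, 2 repeats of AAAC carried a site at every 4th base. These ladders, picked after their values were seen, are printed with capitals for the RAC of each site with a count of 4 or more.
chr12:109545613-109545649: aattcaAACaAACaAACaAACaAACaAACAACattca
chr12:109559655-109559687: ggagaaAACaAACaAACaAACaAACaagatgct
Along the first ladder the 6 sites from 109545621 to 109545641 had counts of 5, 9, 15, 17, 50 and 31. Along the other the 5 sites from 109559663 to 109559679 had counts of 127, 252, 186, 62 and 36. Counts within a repeat thus differed several fold between sites with the same nearest bases. Over the whole list 21 ladders of 4 or more such sites were found under 20 symbols, Meg3 being the one with 2, and Rian had 0. The 21 bases at 109545629, 109545633 and 109559671 occur in 799 other annotated genes, so short reads from these repeats may not be unique to Meg3.

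The sites counted 4 or more times lay in RAC in Meg3 (196 of 196) and, where the sequence is known, in Rian (29 of 29). Nearly all such exonic cytosines of all matched genes did so too, at 16399 of 16411. A filter in the deposited list may set this, so it is no test of the motif. Of the 160 Meg3 sites with a count of 3, 16 lay in RAC and 144 outside it. The base before the C of those 144 was G in 46, C in 38, T in 35 and A in 25. Of the exonic Rian sites with a count of 3, 5 lay in RAC and 15 outside it. Over all matched genes the numbers were 5255 in RAC and 6166 outside it. Sites outside RAC at a count of 3 made up 40.4% of Meg3 sites, 30.6% of exonic Rian sites and 22.2% over all matched genes. The number and density of all Meg3 sites thus include a larger part of such sites than in the list as a whole.

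Within RAC, DRACH cytosines were not listed more often than the others in either gene. In Meg3, 160 of 342 DRACH cytosines had a count of 4 or more, or 46.8% (41.6 to 52.1), against 36 of 72 other RAC cytosines, or 50% (38.7 to 61.3). In Rian it was 24 of 371, or 6.47% (4.39 to 9.44), against 5 of 68, or 7.35% (3.18 to 16.1). The intervals overlap in both genes. Over all matched genes the shares were 1.98% (1.94 to 2.02) for DRACH and 2.59% (2.52 to 2.67) for other RAC. GGAC, a favoured form of DRACH, had 37 of 80 cytosines at a count of 4 or more in Meg3, or 46.25%, and 4 of 39 in Rian. As a share of listed RAC sites, DRACH made up 83.0% in Meg3 (77.4 to 87.5), where it made up 82.6% of the available RAC cytosines. In Rian it made up 82.4% of listed RAC sites and 84.5% of available ones.

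AAC and GAC, the 2 forms of the core, also had overlapping intervals in both genes. In Meg3 GAC reached a count of 4 in 48.9% of cases (42.6 to 55.3) and AAC in 45.3% (38.2 to 52.6). In Rian GAC gave 6.34% (3.74 to 10.5) and AAC 6.84% (4.25 to 10.8). Over all matched genes GAC gave 1.65% and AAC 2.55%. By the base after the C, Meg3 ranged from 35.4% for AACT (23.4 to 49.6) to 70% for AACG (39.7 to 89.2, 7 of 10), and the intervals of these ends overlap.

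The number of adenines among the 20 bases around the cytosine, 10 on each side, went with listing in Meg3. Of RAC cytosines with 1 to 4, 5 to 7, 8 to 10 and 11 to 20 such adenines, 35.7%, 40.1%, 61.1% and 80% (66.2 to 89.1) had a count of 4 or more, with median counts of 18, 14, 19 and 37. Over all matched genes the shares were 1.20%, 1.53%, 2.39% and 7.68%. In Rian they were 8.47%, 5.85%, 6.67% and 7.14%, with overlapping intervals. Place along the gene moved with this in Meg3: in the dense stretch the shares were 90%, 84.1%, 96.4% and 91.7%, and outside it 29.5%, 27.5%, 38.6% and 66.7%. Inside the stretch nearly all cytosines were listed, so the share could hardly rise there. The median counts were 28, 21, 28 and 52 inside it and 15.5, 7.5, 10 and 19 outside it. They were highest in the group with the most adenines both inside and outside. Outside the stretch, that group held 14 RAC cytosines with a count of 4 or more. Most of these lay in the 4th exon block between 109545451 and 109545885, among them the first AAAC ladder. Adenines and place are thus not separated outside the stretch either. The part of base composition or place in this pattern was not tested.

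**Figure D4:**
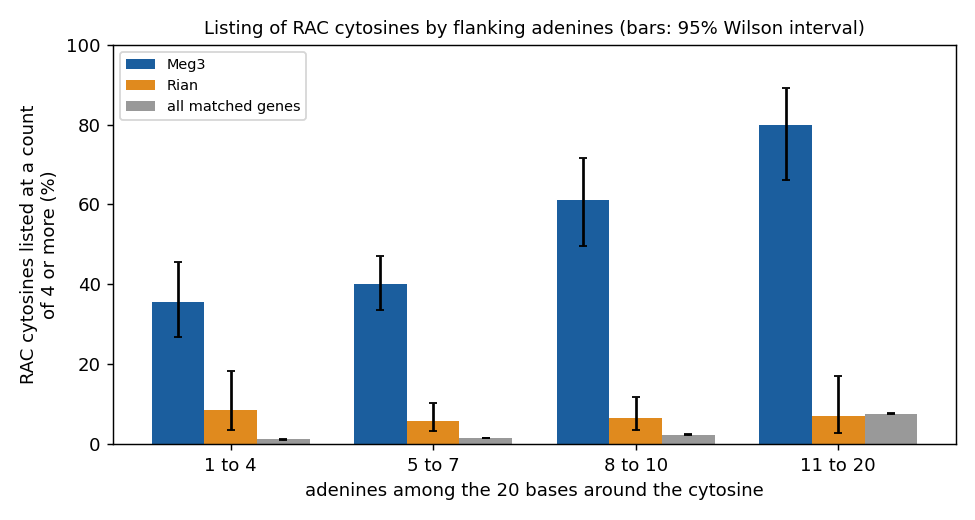
Bars give the percent of RAC cytosines with a count of 4 or more by the number of adenines among the 20 bases around them, with 95% Wilson bars for counting error, in Meg3, Rian and all matched genes. Meg3 goes from 35.7% to 80% and all matched genes from 1.20% to 7.68%, while Rian stays between 5.85% and 8.47%.

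The sites outside RAC sat beside strong sites, mostly on one side. This pattern was picked after the values were seen. For 125 of the 144 Meg3 sites outside RAC, or 86.8%, the next exonic cytosine at the higher genome coordinate was a site with a count of 4 or more, while at the lower coordinate it was so for 15, or 10.4%. In Rian it was 12 of 15 on the higher side and 3 on the lower. Both genes lie on the plus strand, so the higher coordinate is the 3′ side of the RNA. In Malat1, which lies on the minus strand, the higher coordinate is the 5′ side, and still 108 of 117 such sites, or 92.3%, had a strong site there, against 24 on the lower side. Over all matched genes the higher side gave 1985 of 3032, or 65.5%, on the plus strand and 2080 of 3134, or 66.4%, on the minus strand. The pattern therefore followed the genome coordinate and not the direction of the RNA.

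Seen from the strong sites, 125 of the 196 Meg3 sites with a count of 4 or more, or 63.8%, had the neighbouring cytosine on the lower side listed outside RAC at a count of 3, and 15 had the one on the higher side so listed. Over all matched genes it was 4065 of 16411 on the lower side, or 24.8%, and 589 on the higher side. The lower side gave 41.4% in Rian, 47% in Snhg11 and 77.7% in Malat1. RAC sites with a count of 3 lacked the one-sided pattern: in Meg3 the higher and the lower neighbour was a strong site for 1 of 16 each. The distance from a Meg3 site outside RAC to its nearest strong site had a median of 6 nt. The cause was not tested. Counts of Meg3 and Rian restricted to RAC, 212 and 34 sites, do not include these neighbours.

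**Figure D5:**
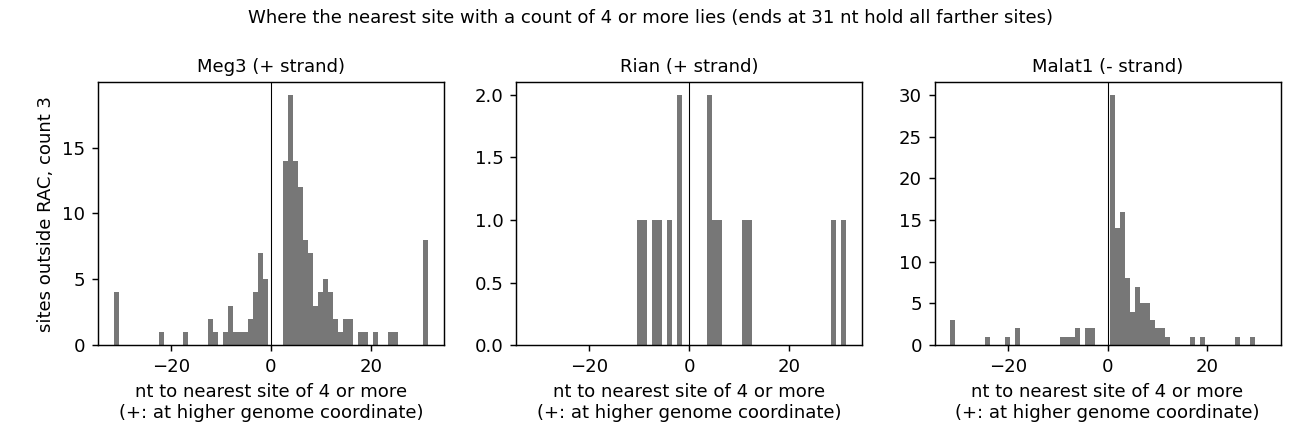
Bars count the sites outside RAC by the distance in nt to the nearest site with a count of 4 or more, positive where that site has the higher genome coordinate; end bars hold all farther sites. In Meg3 110 of 144 and in Malat1 101 of 117 lie on the positive side, against 8 of 15 in Rian, although Meg3 and Malat1 lie on opposite strands.

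Small RNA genes inside the 3 hosts are short and offered few RAC cytosines in number. Of the 2 microRNA genes in Meg3, Mir770 had 0 sites and Mir1906-1 had 6 in its 80 bases, at 109544544, 109544556, 109544560, 109544587, 109544613 and 109544619 with counts of 9, 6, 3, 21, 3 and 16. All 4 of its RAC cytosines had a count of 4 or more, against 196 of 414 over all Meg3 exons. The mature microRNA, 109544588 to 109544609, held none of the 6 sites, and it contains no RAC. Its sequence (RefSeq, GRCm38.p6) is shown with the seed, bases 2 to 8, in capitals.
mmu-miR-1906: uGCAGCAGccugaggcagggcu
In Rian, 1 of 13 annotated snoRNA genes, Gm24895, held sites, at 109646170 with a count of 7 and 109646176 with a count of 3. These snoRNA genes hold 19 exonic RAC cytosines, of which 1 had a count of 4 or more, against 29 of 439 over all Rian exons. Of the 4 RAC cytosines of Gm27300, a small RNA gene in Meg3, 1 was listed, with a count of 4. The 4 microRNA genes in Rian share no base with its exons, and the 14 in Mirg hold 7 exonic RAC cytosines, of which 0 were listed.

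A part of Meg3 has a near copy elsewhere in the genome. All 24 Meg3 sites from 109543710 to 109544613 have the same 21 bases in Gm27000, a lincRNA annotated on the minus strand of chromosome X from 88759471 to 88760312, which also holds a second gene for mmu-miR-1906. The list has 11 sites under Gm27000, with counts of 3 to 174. At 5 of these the same 21 bases are also listed in Meg3. The strongest of these 5 are printed with both positions, capitals marking RAC.
chr12:109544319 and chrX:88759775: tcccttgtGACtgatcatgct
chr12:109544279 and chrX:88759815: tgctagtgAACtggagtgctg
The first had a count of 106 in Meg3 and 174 in Gm27000, and the other 137 in Meg3 and 102 in Gm27000. Over the 5 pairs Meg3 was higher in 2, equal in 1 and lower in 2. Read length and the handling of reads with several matches are not known, so these Meg3 counts may include reads of the copy and are uncertain. Gm27000 was named after its values were seen.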

How the data were processed

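scDART-seq libraries of mouse cortex (4 sublibraries of 1 pool) were represented by 1 site list. Alignment used STAR 2.7.5 on the mm10 build, per the submitters' processing notes. Sites of conversion were found with Bullseye, per the series text. The authors deposited for every site its gene symbol, strand, position and 1 whole number, used here as an unnormalized count. The list has no header. The sources used here do not give the meaning of the count, its filters, the use of the mutant fusion or the strandedness of the reads, and sublibrary depth is unknown.

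Sites were placed on exons of GENCODE M21, merged over transcripts, with Python 3.11.15, pandas 2.3.3 and numpy 2.4.6. Of 28412 sites, 27882 matched one of 4159 genes by symbol, chromosome and strand, and of those in exons 1 was not a C. Sequence came from annotated transcripts, so sites outside exons have none. RAC is defined by 2 bases before the C, and DRACH by 3 before and 1 after. Both were called only where 3 bases before and 1 after were known. Intervals are 95% Wilson intervals (scipy 1.17.1), for counting error only. No test was run, since 1 list has no replicates. The functions were tested on simulated data. The members and gene lists were chosen with earlier results of these data known. Named by rule were the 5 strongest sites per gene, the first and last site, the ends of the longest gaps, the densest 200-base window, region genes, comparison noncoding RNAs and the 3 nearest genes by density, of which 1 is not reported here. Whatever else is named was picked once its values were known.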

Additional observations from a re-analysis of the deposited data

How the results depend on the processing

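In number of sites, density and listed share, Meg3 was above Rian and Rian above Mirg, which stayed at 0, under every alternative run. Over all sites the median counts of Meg3 and Rian were equal, and the DRACH share of all sites was 49.4% in Meg3 and 57.1% in Rian. With a count of 4 or more, Meg3 had 196 sites and Rian 34, site density was 10.8 and 1.59 per kb, median spacing 29 and 61 nt, and the DRACH share 81.6% and 82.8%. With RAC sites alone, Meg3 had 212 sites and Rian 34, median counts were 16 and 12, and DRACH made up 83.0% and 82.4%, which turned the order of the genes round. With sites within 10 nt merged, Meg3 had 188 and Rian 37, median counts were 11.5 and 8, and median spacing 33 and 91 nt. Sites in runs numbered 29 and 0 with steps of at most 5 nt, and 198 and 30 with at most 20 nt. Measured along exons, the Rian median spacing was 12.5 nt and that of Meg3 remained 12. The listed share moved less: on the longest transcript it was 53.7% in Meg3 and 7.74% in Rian. Taking sites by position in place of the symbol gave 356 and 58 again. No paired analysis was possible because the single list has no samples or replicate numbers, and leaving out a replicate was not possible for the same reason. Read depth, animals and genotype are not in the list, so a low share and a low level of RNA cannot be told apart, and differences between genes carry no error between animals.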

Other observations

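The 3′ part of Meg3 is overlapped on the other strand by Gm26906, a lincRNA annotated from 109568628 to 109571723, which was named after its values were seen. The list had 0 sites under Gm26906 and 4 Meg3 sites inside its span, with counts of 5, 3, 18 and 12, although 64 RAC cytosines of Meg3 lie there. Most of the site-free 3′ stretch of Meg3 falls in this overlap. Whether the listing of sites there depends on reads that both strands share was not tested.

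Of the 354 Meg3 sites with a full 21-base sequence, 31 (8.76%) have the same bases in another annotated gene, 18 of these at counts above 3. In Rian the number is 4 of 49 (8.16%), among them both sites of the snoRNA gene Gm24895, whose bases also occur in Gm24598.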
